A study of Rattus norvegicus with 9 samples.

Results

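The genes of potassium, sodium and chloride channels set how easily a muscle fibre fires, and their messenger RNA was measured by RNA sequencing in female Sprague-Dawley rats, in the pubococcygeus, which is a skeletal muscle of the pelvic floor. Members were taken by symbol: every row of the tables named Kcn (potassium channel subunits and their interacting proteins), Scn with a number and a or b (voltage-gated sodium channel subunits) or Clcn (chloride channels and chloride-proton exchangers). This gave 114 of the 30518 rows, and 0 of them shared a symbol with another row. Of the 114 genes, 79 had enough counts to be tested, among 16256 tested genes in all.

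The study divided 24 rats into 3 groups of 8, and 9 libraries, 3 per group, were used here. Rats of the stimulated group had a model of stress urinary incontinence (SUI) made by removal of both ovaries and distension of the vagina, for which a balloon catheter (8 Fr, inflated with 3 mL saline) was loaded for 4 h with a weight of 120 g. From 1 week later they received pelvic floor electrical stimulation (PFES) through the vagina in daily sessions of 30 min, 5 per week for 2 weeks, with square pulses at 50 Hz that were 200 µs wide and carried 20 mA. Rats of the SUI group had the same operation and no stimulation, and blank rats had neither. Stimulated and SUI rats thus share the ovary removal and the distension, which cannot be told apart from each other. No group had a sham operation or a sham stimulation, and the sources used here do not give the ages of the rats. The sources do not say how the 3 libraries relate to the 8 rats of a group, so p-values measure the spread between libraries, which may be technical.

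A muscle fibre fires when the sodium channel Nav1.4, encoded by Scn4a, opens. The chloride channel ClC-1, encoded by Clcn1, carries most of the resting conductance of the mature fibre and damps repeated firing, and its loss causes myotonia, in which the fibre keeps firing after the stimulus has ended. Inward rectifiers of the Kir2 family, encoded by Kcnj2 and Kcnj12, hold the resting potential, the ATP-sensitive channel Kir6.2, encoded by Kcnj11, opens when the fibre runs short of energy, and voltage-gated potassium (Kv) channels end each action potential. In rat muscle that has lost its nerve, Clcn1 is known to decline, and the small-conductance potassium channel Kcnn3 is known to appear.

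The member at the centre of the results was Clcn1, which had lower counts in SUI libraries than in both other groups. Kcnj2 had its highest counts in SUI libraries, and Scn4a, which shares the fibre membrane with Clcn1, differed less. For these 3 genes the 250 bases before the transcription start are shown, from RefSeq on the rat assembly GRCr8, as chr4:72138928-72139177 on the plus strand for Clcn1, chr10:96559975-96560224 on the plus strand for Kcnj2 and chr10:91796325-91796574 on the minus strand for Scn4a. Capitals mark matches to the E-box (CANNTG), the motif of the myogenic factors, and in Clcn1 also the match to the MEF2 motif, named for a muscle transcription factor.
Clcn1: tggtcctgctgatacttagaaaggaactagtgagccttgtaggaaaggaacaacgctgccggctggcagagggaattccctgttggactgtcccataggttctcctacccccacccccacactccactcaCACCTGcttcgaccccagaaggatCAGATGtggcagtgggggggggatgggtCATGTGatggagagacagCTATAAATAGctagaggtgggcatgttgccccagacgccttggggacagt
Kcnj2: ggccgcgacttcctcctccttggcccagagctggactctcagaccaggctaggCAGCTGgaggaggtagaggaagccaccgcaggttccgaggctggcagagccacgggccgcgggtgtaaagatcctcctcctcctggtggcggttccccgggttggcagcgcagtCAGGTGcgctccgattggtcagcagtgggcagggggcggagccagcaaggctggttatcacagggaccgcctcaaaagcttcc
Scn4a: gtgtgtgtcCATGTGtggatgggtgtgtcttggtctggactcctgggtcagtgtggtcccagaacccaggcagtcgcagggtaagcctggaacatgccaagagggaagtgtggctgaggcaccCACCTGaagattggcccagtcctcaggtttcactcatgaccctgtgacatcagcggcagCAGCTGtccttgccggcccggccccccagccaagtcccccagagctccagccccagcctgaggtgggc
Clcn1 held 3 E-boxes and 1 MEF2 match, CTATAAATAG, which begins 50 bases before the start, Scn4a 3 E-boxes and Kcnj2 2 E-boxes. None of these matches overlapped another, and both strands were searched. RefSeq promoters were found for 80 of the 114 members. The MEF2 motif was in 2 of the 80, Clcn1 and the inward rectifier Kcnj9, which is 2.5%, against 2.96% of all 33469 promoters. E-boxes were in 65% of the 80 promoters and in 65.5% of all. The muscle motif MCAT (CATTCC) was in 10% of the 80 and in 12.1% of all, and the CArG box in 0% of the 80 and in 1.5% of all. A match is a description of the letters and not a sign of binding.

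Levels of different genes are compared in FPKM, the deposited fragment values that the authors scaled by gene length and library depth, and libraries are compared in CPM, counts scaled to a common library size after TMM (trimmed mean of M values) adjustment. Total counts ran from 50833480 to 147650284 per library, with a median of 110699836, so that 3 counts, taken as the floor of detection, equal 0.021 to 0.0794 CPM depending on the library, counting error alone considered. Blank replicate 1 stood apart, with the lowest total, 32.9% of its counts on mitochondrial transcripts against 13.4% to 17.7% in the other 8 libraries, and a median correlation of 0.947 with them. SUI replicate 1 came next, at 0.967. The muscle label matched its markers: Acta1, skeletal actin, ran from 16746 to 32045 FPKM, and 10 of 10 skeletal muscle markers were measured in every library.

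The channel genes covered a wide range, and most were scarce. Of the 114 members, 7 had a mean of at least 10 FPKM over the 9 libraries, 23 of at least 1 and 57 of under 0.1, among them 7 with an FPKM of 0 in every library. The 35 members that were not tested had a mean of at most 0.0281 FPKM.

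**Figure D1:**
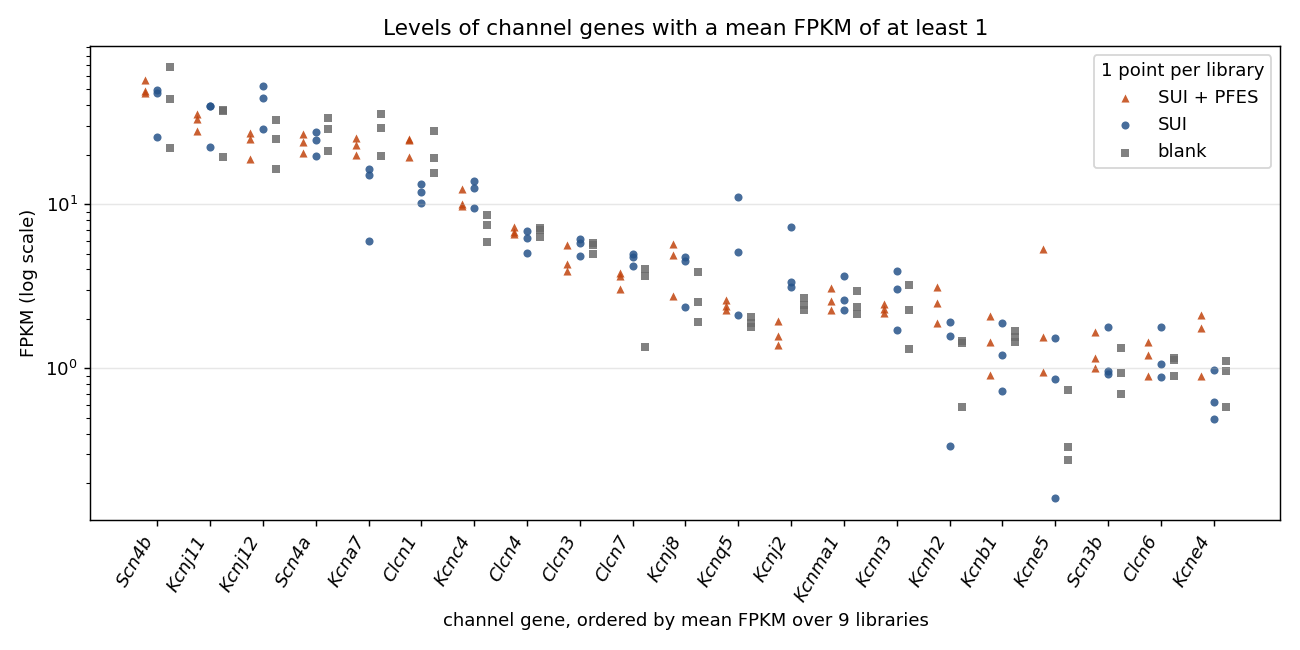
FPKM (log axis) of 21 channel genes with a mean of at least 1 FPKM, ordered by their mean, with 1 point per library for SUI with PFES, SUI and blank. The points of Clcn1 and Kcna7 are lowest in SUI, and those of Kcnj2 are lowest in SUI with PFES.

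Among the sodium channel genes described here, the helper Scn4b, the beta 4 subunit, had the higher level in FPKM. It measured 48.99, 47.8 and 56.8 FPKM in the stimulated libraries 1 to 3, 25.5, 49.7 and 47.3 in SUI and 21.8, 67.9 and 43.5 in blank libraries. The 3 groups of Scn4b overlapped, and its lowest value was that of blank replicate 1. The pore subunit Scn4a measured 26.5, 20.5 and 23.9 FPKM in stimulated, 24.7, 27.7 and 19.6 in SUI and 21.03, 33.6 and 28.6 in blank libraries, and made up 88.7% to 93.9% of the summed FPKM of the sodium channel pore subunits in each library.

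Among potassium channels the inward rectifiers led. Kcnj11 averaged 32.2 ± 3.8 FPKM in stimulated, 33.8 ± 9.93 in SUI and 31.3 ± 10.2 in blank libraries, and Kcnj12 averaged 23.6 ± 4.33, 41.9 ± 12.03 and 24.6 ± 8.05 FPKM in the same order (SD, n = 3). Of the Kv pore subunits, Kcna7 (Kv1.7) had the highest mean over the 9 libraries, 21.0 FPKM, and Kcnc4 (Kv3.4, a fast channel of striated muscle) came next with 9.97. Kcne3, an accessory subunit that pairs with Kv3.4 in muscle, averaged only 0.133 FPKM. Kcne3 counts were between 4 and 92 per library, so its ratio to Kcnc4 is imprecise. A row without a name on the opposite strand overlaps Kcne3, and no source says whether reads were counted by strand.

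Calcium-activated channels lay well below the leading rectifiers. Kcnma1, the large-conductance channel, averaged 2.66 FPKM, and Kcnn3 averaged 2.49. Kcnn3 had 8.37, 6.45 and 6.69 CPM in stimulated libraries, 7.08, 11.7 and 5.27 CPM in SUI and 5.43, 6.43 and 9.28 CPM in blank, so that the 3 groups overlapped. Among chloride channels Clcn1 led with a mean of 18.5 FPKM, ahead of the endosomal exchangers Clcn4 at 6.59 and Clcn3 at 5.23. Clcn3 overlaps Hpf1 and Kcnma1 overlaps an unnamed row with many counts, so their counts may hold reads of the neighbour.

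**Figure D2:**
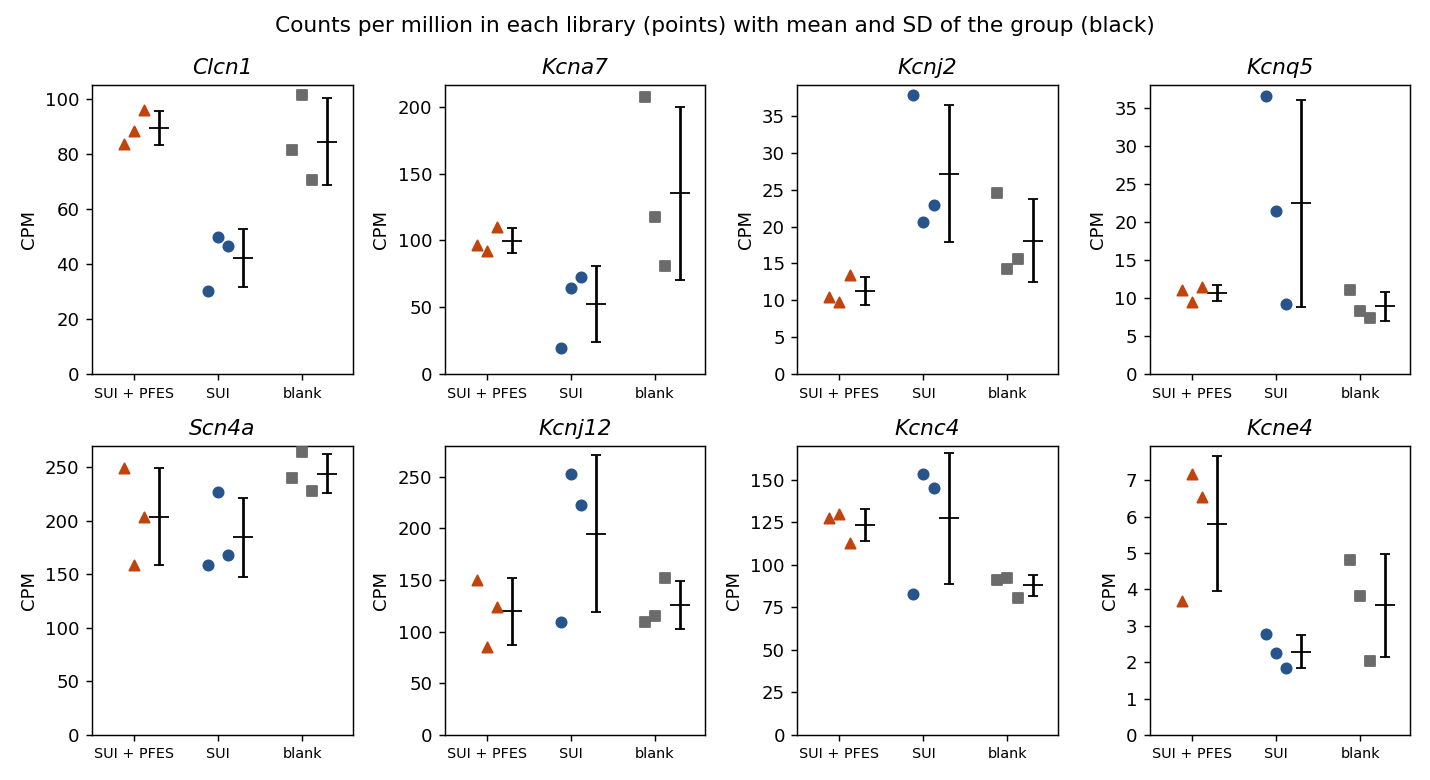
CPM of 8 channel genes in each library (points), in the order SUI with PFES, SUI and blank, with the mean and SD of each group beside them (n = 3). The SUI points of Clcn1 and Kcna7 lie below those of both other groups, and the stimulated points of Kcnj2 lie below those of both other groups.

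SUI over blank asks which channel genes differ once the model has been made. Clcn1 was lower in SUI, at 30.1, 49.9 and 46.4 CPM in the SUI libraries 1 to 3, against 81.4, 101 and 70.4 CPM in the blank ones. Every SUI library lay below every blank library, in CPM and in FPKM, and the mean was 42.1 ± 10.6 CPM in SUI and 84.4 ± 15.7 CPM in blank (SD, n = 3 each). For Clcn1 the log2 fold change was -1.003 ± 0.23 (SE), with unadjusted p = 0.00175 and adjusted p = 0.397 over all genes by edgeR's quasi-likelihood test, which is short of the threshold of 0.05. With each of the 9 libraries left out in turn the log2 fold change of Clcn1 stayed between -1.16 and -0.82. DESeq2, run as an alternative, called Clcn1 in this comparison (log2 fold change -1.02, adjusted p = 0.0115), and over all alternatives its adjusted p ran from 0.0115 to 0.773. Clcn1 lies on chromosome 4, 71172547 to 71199984 on the plus strand of the assembly mRatBN7.2.

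Set against the sodium channel of the same membrane, Clcn1 was also lower. The ratio of Clcn1 to Scn4a in FPKM was 0.411, 0.479 and 0.603 in SUI libraries 1 to 3, against 0.74, 0.836 and 0.672 in blank libraries. The groups did not overlap in this ratio, which was chosen after the values were seen and was not tested. Scn4a itself had 159, 227 and 168 CPM in SUI against 239.8, 264 and 228 CPM in blank, with every SUI library below every blank one in CPM, though the groups overlapped in FPKM. Its log2 fold change was -0.40 ± 0.23 (SE; unadjusted p = 0.114, adjusted p = 0.627).

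Kcna7 also had lower counts in SUI. It had 19.8, 64.2 and 72.8 CPM in the SUI libraries 1 to 3 and 207, 118 and 81.01 CPM in the blank libraries, with no overlap. Its log2 fold change was -1.37 ± 0.47 (SE; unadjusted p = 0.0161, adjusted p = 0.549). The lowest SUI value is that of SUI replicate 1 and the highest blank value that of blank replicate 1, the 2 libraries that stood apart. Kcna7 had a log2 fold change of -0.93 without blank replicate 1, -0.99 without SUI replicate 1 and -0.54 without both.

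Higher counts in SUI were seen for Kcnq5, a slow channel of the M-current family that muscle also expresses. Kcnq5 had 36.5, 21.5 and 9.27 CPM in the SUI libraries 1 to 3 and 11.01, 8.32 and 7.36 CPM in the blank ones. In CPM, SUI replicates 1 and 2 were high and replicate 3 lay within the blank range. In FPKM every SUI library lay above every blank one, though narrowly for SUI replicate 3 (2.10, against at most 2.05 in blank). Kcnq5 had a log2 fold change of 1.34 ± 0.41 (SE; unadjusted p = 0.00908, adjusted p = 0.524), and 0.78 without SUI replicate 1. Kcnj2 pointed the same way, with 37.8, 20.7 and 22.97 CPM in SUI and 24.5, 14.3 and 15.5 CPM in blank. Its groups overlapped in CPM and not in FPKM, and its log2 fold change was 0.59 ± 0.29 (SE; unadjusted p = 0.074, adjusted p = 0.61). The Kcnj2 log2 fold change was 0.26 without SUI replicate 1 and 0.89 without blank replicate 1. Its relative Kcnj12 had 109, 253 and 223 CPM in SUI and 109.7, 116 and 152 CPM in blank, with overlap (log2 fold change 0.63 ± 0.33, SE, and 0.38 without SUI replicate 2). Kcnc4 had 83.1, 154 and 145 CPM in SUI and 91.1, 92.1 and 80.7 CPM in blank (log2 fold change 0.53 ± 0.24, SE). In CPM, SUI replicate 1 was low and the other 2 SUI libraries lay above every blank one. In FPKM all SUI libraries of Kcnc4 lay above every blank one.

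Scn7a, which encodes a sodium-sensing channel of glia and other supporting cells, measured 5.79, 3.79 and 3.74 CPM in SUI and 10.7, 9.49 and 4.92 CPM in blank (log2 fold change -0.91 ± 0.31, SE; unadjusted p = 0.0159, adjusted p = 0.549). The highest SUI value, in replicate 1, lay above the lowest blank value, in replicate 3. Of the rarer members, Kcnj13 and the sodium-activated channel Kcnt2 were below blank in every SUI library, at 0.23, 0.235 and 0.144 CPM in SUI against 0.556, 0.558 and 0.375 CPM in blank for Kcnj13. Kcnt2 had 0.283, 0.307 and 0.195 CPM in SUI and 0.741, 0.674 and 0.563 CPM in blank. Kcnj13 lies within Gigyf2, a highly counted gene of the opposite strand, so its counts are uncertain. Kcnj13 and Kcnt2 were named after their values were seen.

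Over the 79 tested members, 0 were called by edgeR in SUI over blank at an adjusted p under 0.05, as were 0% of all genes, and DESeq2 called 1, Clcn1. At an unadjusted p under 0.05 there were 9 members, which is 11.4% of the members, beside 8.18% of all genes. Of these 9, 2 were higher (2.53% of the members, beside 2.84% of all genes) and 7 lower (8.86%, beside 5.34% of all genes). In 9 members every SUI library lay below every blank one in CPM, beside 7.77% of all genes, and in 2 every SUI library lay above, beside 7.34% of all genes. The 9 are 11.4% of the members and the 2 are 2.53%. In sign, 34 members had a log2 fold change above 0 and 45 below, with a median of -0.11, against 0.01 over all genes. With library totals in place of TMM factors the split was 44 above and 35 below 0, while the median of all genes moved to 0.19. Among the 39 members with a mean CPM of at least 1 the median was 0.01.

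Stimulated over SUI asks what differs after stimulation of operated rats. Clcn1 was higher, at 83.7, 88.2 and 95.98 CPM in the stimulated libraries 1 to 3, against 30.1, 49.9 and 46.4 CPM in the SUI ones. Every stimulated library lay above every SUI library, and the log2 fold change was 1.08 ± 0.24 (SE; unadjusted p = 0.00105, adjusted p = 0.29), short of the threshold. With each library left out in turn it stayed between 0.90 and 1.22. DESeq2 called it (log2 fold change 1.07, adjusted p = 0.00605), and the adjusted p over all alternatives ran from 0.00605 to 0.801. The ratio of Clcn1 to Scn4a in FPKM was 0.73, 1.213 and 1.027 in stimulated libraries and at most 0.603 in SUI libraries. This comparison and SUI over blank share the SUI libraries, so that their opposite signs are not independent of each other.

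Kcnj2 showed the reverse pattern. It had 10.5, 9.79 and 13.4 CPM in the stimulated libraries 1 to 3 and 37.8, 20.7 and 22.97 CPM in the SUI libraries, with no overlap. For Kcnj2 the log2 fold change was -1.27 ± 0.30 (SE; unadjusted p = 0.00166, adjusted p = 0.319), and it stayed between -1.45 and -0.95 with each library left out in turn. DESeq2 called Kcnj2 (log2 fold change -1.29, adjusted p = 0.0162), and its adjusted p over all alternatives ran from 0.0162 to 0.875. Kcnj12, which encodes the second Kir2 channel of muscle, had 149.9, 85.5 and 124 CPM in stimulated and 109, 253 and 223 CPM in SUI libraries. Its groups overlapped in CPM and not in FPKM (log2 fold change -0.70 ± 0.33, SE; unadjusted p = 0.0628, adjusted p = 0.646). Kcnj2 lies on chromosome 10, 96060821 to 96071445 on the plus strand of mRatBN7.2.

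Kcna7 had 96.9, 92.2 and 110.3 CPM in stimulated libraries and 19.8, 64.2 and 72.8 CPM in SUI libraries, again without overlap (log2 fold change 0.93 ± 0.47, SE; unadjusted p = 0.0745, adjusted p = 0.675). Without SUI replicate 1 its log2 fold change was 0.55. Kcnq5 had 11.1, 9.53 and 11.4 CPM in stimulated and 36.5, 21.5 and 9.27 CPM in SUI libraries, where SUI replicates 1 and 2 lay above and replicate 3 below every stimulated library. Its log2 fold change of -1.07 ± 0.41 (SE; unadjusted p = 0.0258, adjusted p = 0.546) became -0.52 without SUI replicate 1.

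A pair of scarcer members was higher in CPM in every stimulated library, Kcne4 and Kcnk2, though the groups of Kcne4 overlapped in FPKM. Kcne4, an accessory subunit that restrains several Kv channels, had 3.69, 7.18 and 6.54 CPM in stimulated and 2.77, 2.25 and 1.85 CPM in SUI libraries (log2 fold change 1.34 ± 0.38, SE; unadjusted p = 0.00536, adjusted p = 0.435). Kcnk2, the stretch-sensitive leak channel TREK-1, had 3.45, 1.46 and 2.2 CPM in stimulated and 0.505, 1.05 and 1.03 CPM in SUI libraries (log2 fold change 1.46 ± 0.48, SE; unadjusted p = 0.0128, adjusted p = 0.507). Kcna10, a Kv1 channel named after its values were seen, had 11, 22 and 20 counts in stimulated libraries and 0 in each SUI library, and DESeq2 called it. Kcna10 also had 0 counts in blank replicate 1 and 24 and 9 in blank replicates 2 and 3.

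Scn4a and Kcnc4 had overlapping groups in this comparison. Scn4a had 249.7, 159 and 204 CPM in stimulated and 159, 227 and 168 CPM in SUI libraries (log2 fold change 0.14 ± 0.23, SE), and its sign turned to -0.03 without stimulated replicate 1. Kcnc4 had 128, 129.9 and 113 CPM in stimulated and 83.1, 154 and 145 CPM in SUI libraries (log2 fold change -0.04 ± 0.24, SE), and its sign turned without SUI replicate 2, with 0.11.

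Over the 79 tested members 0 were called by edgeR in stimulated over SUI at an adjusted p under 0.05, beside 0.0123% of all genes, which is 2 genes, and DESeq2 called 3, Clcn1, Kcnj2 and Kcna10. At an unadjusted p under 0.05 there were 7 members, which is 8.86% of the members beside 8.00% of all genes. Of these 7, 5 were higher (6.33% of the members, beside 5.23% of all genes) and 2 lower (2.53%, beside 2.77% of all genes). In 10 members (12.7%) every stimulated library lay above every SUI one, beside 9.52% of all genes, and in 2 members (2.53%) every one lay below, beside 9.28% of all genes. The 2 members below were Kcnj2 and Clcn7, the lysosomal exchanger. Clcn7 had 17.9, 18.3 and 19.5 CPM in stimulated and 20.1, 24.4 and 22.5 CPM in SUI libraries. The log2 fold change was above 0 in 53 members and below 0 in 26, with a median of 0.35 against 0.02 over all genes. With library totals the split was 47 and 32 and the median of all genes moved to -0.11. Among the 39 members with a mean CPM of at least 1 the median was 0.09.

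Stimulated over blank sets the operated and stimulated muscle against the untouched one. Clcn1 had 83.7, 88.2 and 95.98 CPM in stimulated libraries and 81.4, 101 and 70.4 CPM in blank libraries, and the groups overlapped (log2 fold change 0.08 ± 0.23, SE; unadjusted p = 0.736, adjusted p = 0.961). This p does not show that the groups were alike. Kcnj2 was lower in every stimulated library, at 10.5, 9.79 and 13.4 CPM against 24.5, 14.3 and 15.5 CPM in blank (log2 fold change -0.69 ± 0.29, SE; unadjusted p = 0.0417, adjusted p = 0.898), and its log2 fold change was -0.43 without blank replicate 1. Scn7a was lower in every stimulated library too, at 4.67, 4.32 and 4.77 CPM against 10.7, 9.49 and 4.92 CPM in blank (log2 fold change -0.87 ± 0.31, SE; unadjusted p = 0.0203, adjusted p = 0.898). Kcnc4 was above blank in every stimulated library, at 128, 129.9 and 113 CPM against 91.1, 92.1 and 80.7 CPM in blank (log2 fold change 0.49 ± 0.24, SE; unadjusted p = 0.0709, adjusted p = 0.898).

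Kcne5, an accessory subunit of the X chromosome, had 0.8, 3.67 and 1.18 CPM in stimulated libraries and 0.344, 0.519 and 0.197 CPM in blank libraries (log2 fold change 2.40 ± 0.84, SE; unadjusted p = 0.017, adjusted p = 0.898). The highest value is that of stimulated replicate 2, without which the log2 fold change was 1.47. Kcnh2, the hERG-type Kv channel, had 8.25, 11.4 and 9.91 CPM in stimulated libraries, 1.07, 6.15 and 7.54 CPM in SUI and 3.07, 5.37 and 5.41 CPM in blank. Its stimulated libraries lay above all 6 others in CPM, while stimulated and SUI overlapped in FPKM, and its SUI and blank libraries overlapped. Kcnh2 was named after its values were seen.

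Over the 79 tested members 0 were called by edgeR in stimulated over blank at an adjusted p under 0.05, beside 0.00615% of all genes, which is 1 gene, and DESeq2 called 0. At an unadjusted p under 0.05 there were 4 members, which is 5.06% of the members beside 3.77% of all genes. Of these 4, 2 were higher (2.53% of the members, beside 1.96% of all genes) and 2 lower (2.53%, beside 1.81% of all genes). In 7 members (8.86%) every stimulated library lay above every blank one, beside 7.90% of all genes, and in 4 (5.06%) every one lay below, beside 4.72% of all genes. In sign, 48 members were above 0 and 31 below, with a median of 0.12 against 0.04 over all genes. With library totals the split was 54 and 25.

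**Figure D3:**
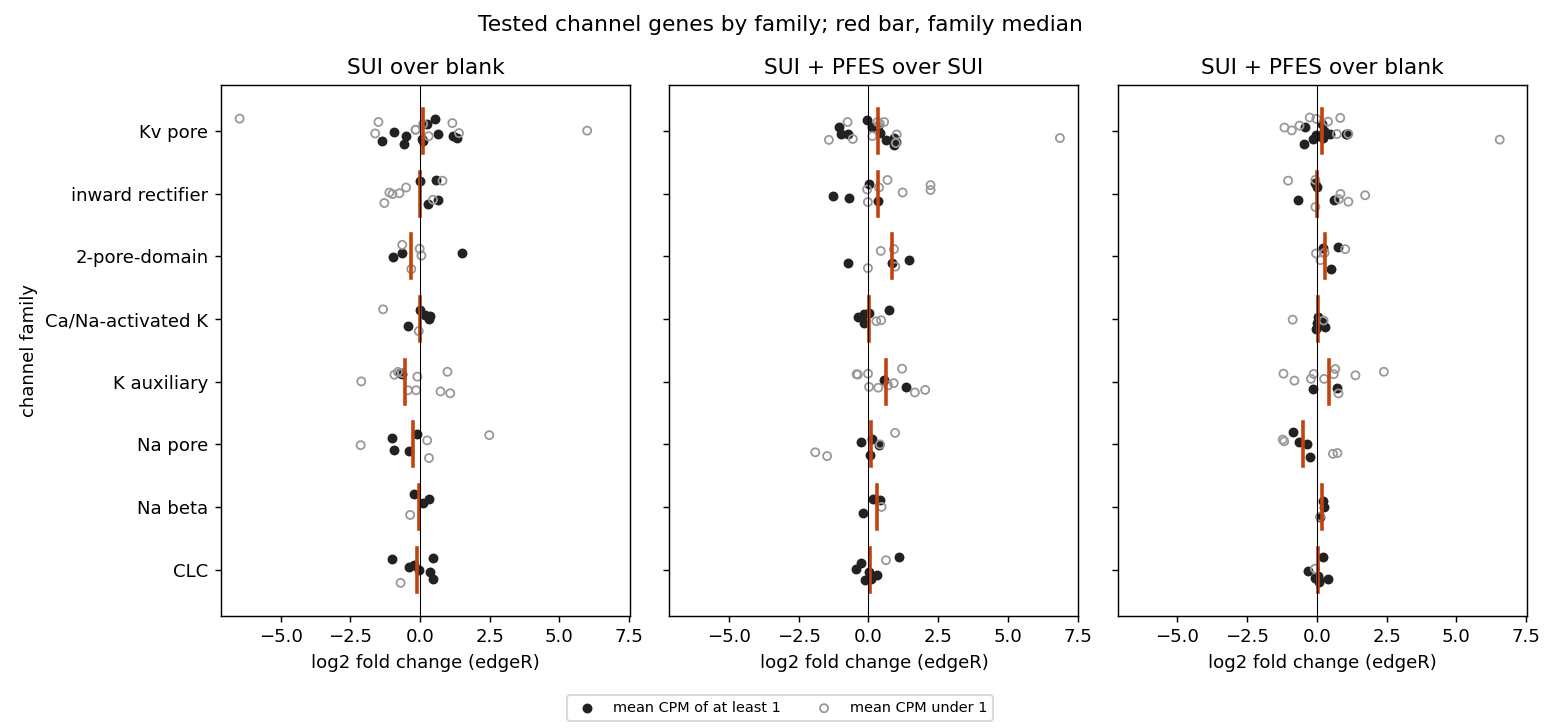
edgeR log2 fold change (horizontal axis) of tested channel genes in 8 families (vertical axis), for SUI over blank, SUI with PFES over SUI and SUI with PFES over blank; filled points have a mean CPM of at least 1, open points less, and the bar is the family median. The families have points on both sides of 0, except that the 4 sodium channel beta subunits are all above 0 in SUI with PFES over blank, and the points farthest from 0 are open ones.

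By family the members were mixed in sign. Of the 21 tested Kv pore subunits, 12 were above 0 and 9 below in SUI over blank, and 14 and 7 in stimulated over SUI. Of the 11 inward rectifiers the split was 5 and 6 in SUI over blank and 7 and 4 in stimulated over SUI. The 12 potassium channel auxiliary subunits had 3 above and 9 below 0 in SUI over blank, with a median of -0.53, and 9 above and 3 below in stimulated over SUI, with a median of 0.63. Of these 12, 1 had an unadjusted p under 0.05 in each of the comparisons, beside 8.18%, 8.00% and 3.77% of all genes. These were Kcnip4, a calcium-binding partner of Kv4 channels, in SUI over blank, Kcne4 in stimulated over SUI and Kcne5 in stimulated over blank. Kcnip4 had 0.159, 0.217 and 0.185 CPM in SUI libraries and 1.72, 0.287 and 0.474 CPM in blank ones, the highest in blank replicate 1. The 8 CLC members had 3 above and 5 below 0 in SUI over blank and 5 above and 3 below in stimulated over SUI, and Clcn1 was the member with the largest size of change in both.

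The summed FPKM of a family gives its level. The CLC genes summed to 35.0 to 43.2 FPKM in stimulated libraries, 29.0 to 32.8 in SUI and 30.2 to 46.6 in blank. The inward rectifiers summed to 59.2 to 68.7 FPKM in stimulated, 63.8 to 100.2 in SUI and 40.9 to 75.0 in blank libraries. The sodium channel pore subunits summed to 22.4 to 28.4, 20.8 to 30.0 and 23.6 to 36.2 FPKM in stimulated, SUI and blank libraries. In each of these families the SUI range overlapped the blank range. The SUI range of the CLC genes lay below their stimulated range, while in the other families given here these ranges overlapped.

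**Figure D4:**
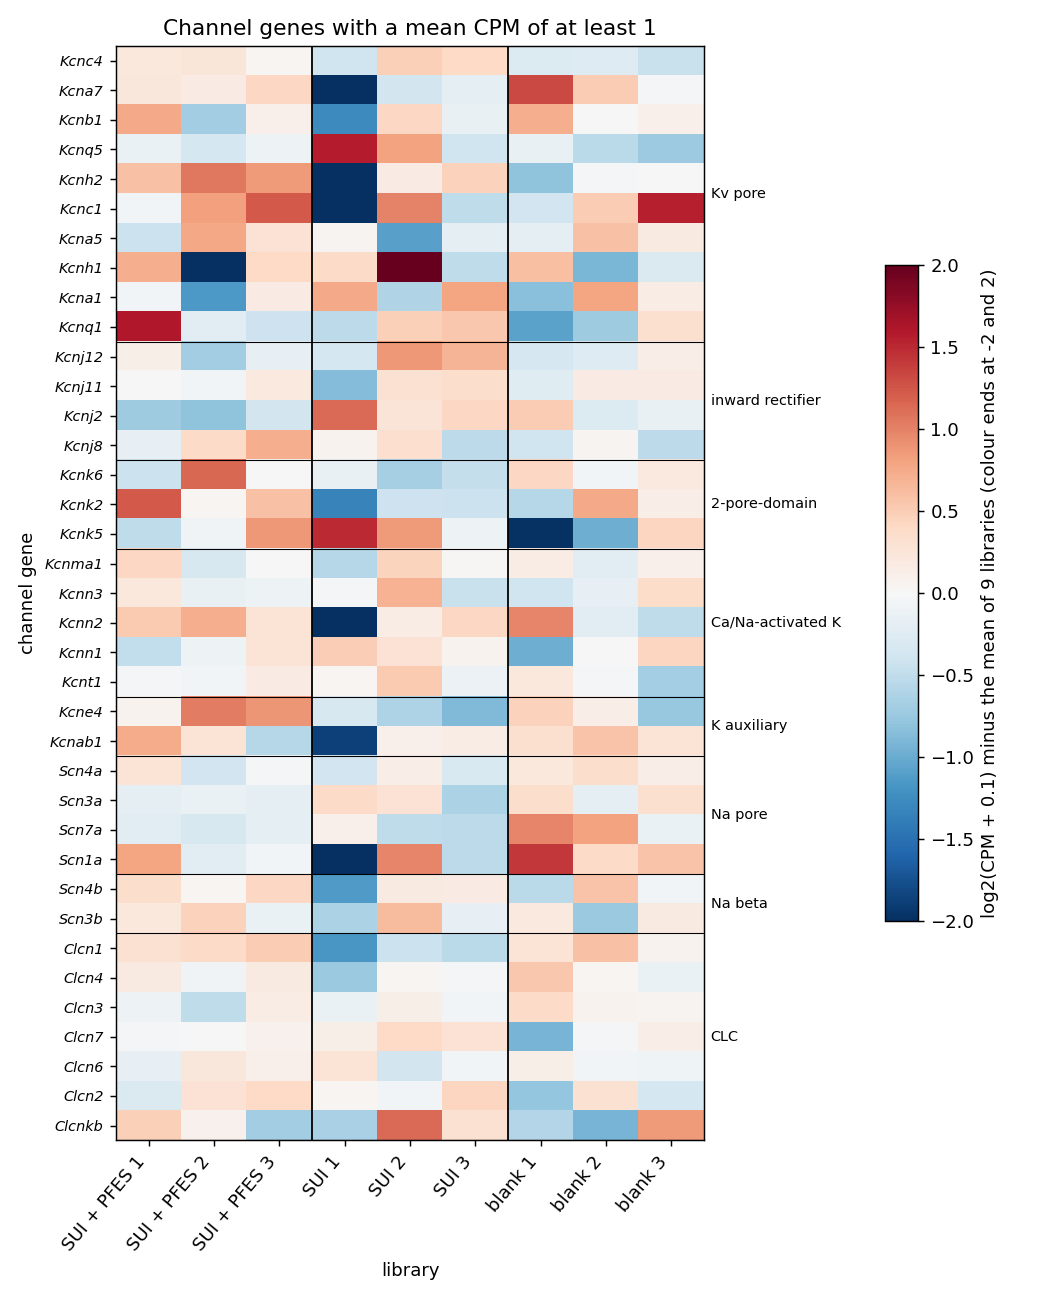
log2(CPM + 0.1) of 37 of the 39 channel genes with a mean CPM of at least 1 (rows, by family), as the difference from the mean of the 9 libraries (columns, SUI with PFES, SUI and blank); red is higher, blue lower, and colours end at -2 and 2. SUI 1 holds many of the darkest cells, such as those of Kcna7 and Kcnh2.

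Libraries of one group also differed among themselves, and the median spread was widest in SUI. Over the 23 members with a mean of at least 1 FPKM, the median coefficient of variation was 13.5% in stimulated, 34% in SUI and 30.7% in blank libraries. SUI replicate 1 was the lowest of the 9 libraries for 14 of the 39 members with a mean CPM of at least 1, which is 35.9%, while it was the lowest for 16.6% of all genes at that level. Blank replicate 1 was the lowest for 6 of the 39, against 33.5% of all genes. SUI replicate 1 was lowest for Clcn1, Kcna7, Kcnh2 and Kcnj11 and highest for Kcnj2 and Kcnq5. The other 2 SUI libraries lay below every blank and stimulated library for Clcn1 and Kcna7, and above every stimulated library for Kcnj2, so these separations do not rest on SUI replicate 1.

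Genes that work with the channels were given by a list of 30 partners. It was chosen with earlier results of these data known, so its shares are a description and not a test. Of the 30 partners, 29 were tested and 0 called in each comparison. In SUI over blank 9 were above 0 and 20 below (15 and 14 with library totals in place of TMM factors), the lowest adjusted p being 0.432. An unadjusted p under 0.05 was found for 2 of the 29 on the higher side (Nedd4l and Sgk1; 6.9%, beside 2.84% of all genes) and 4 on the lower side (Abcc9, Atp1b4, Ank3 and Dpp6; 13.8%, beside 5.34% of all genes). Nedd4l, a ubiquitin ligase that removes sodium channels from the membrane, had 38.6, 44.2 and 35.1 CPM in SUI and 19.4, 20.2 and 25.7 CPM in blank libraries, with no overlap. Sgk1, a kinase that restrains Nedd4l, had 31.96, 64.2 and 69.9 CPM in SUI and 25.2, 18.01 and 38.2 CPM in blank libraries, with overlap. Abcc9, which encodes the sulfonylurea receptor SUR2 that Kir6.2 needs in muscle, had 76.5, 123 and 105 CPM in SUI and 181, 142 and 150.0 CPM in blank libraries, with no overlap, while Kcnj11 had 62.8, 142 and 147 CPM in SUI and 96.8, 129 and 129 CPM in blank. Atp1b4, a muscle protein of the sodium pump beta family, had 1.04, 6.9 and 10.7 CPM in SUI and 78.2, 19.9 and 11.4 CPM in blank libraries. In stimulated over SUI 18 partners were above 0 and 11 below, and Atp1b4 alone had an unadjusted p under 0.05 (3.45% of the partners, beside 8.00% of all genes), with 26.97, 37.4 and 11.2 CPM in stimulated libraries. In stimulated over blank 15 were above 0 and 14 below, and 0 had an unadjusted p under 0.05, beside 3.77% of all genes.

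In a whole muscle sample, fewer cells of a type and less RNA per cell cannot be told apart. Among the lists of other cells, only the fibroblast sum was lower in SUI than in both other groups. The leukocyte sum was lower in SUI than in blank, and the nerve, smooth muscle and endothelial sums overlapped between groups. Stimulated replicates 1 to 3 differed, with 108, 671 and 241 CPM of the fibroblast marker Col1a1 and 40.6, 180 and 91.9 CPM of the leukocyte marker Cd74. The 7 fibroblast markers summed to 946 to 3331 CPM in stimulated, 596 to 905 in SUI and 1306 to 1597 in blank libraries, with 7 of 7 lower in SUI than in blank and 7 of 7 higher in stimulated than in SUI. The 6 leukocyte markers found summed to 49.9 to 251 CPM in stimulated, 61.4 to 68.0 in SUI and 92.6 to 145 in blank, with 6 of 6 lower in SUI than in blank and 6 of 6 higher in stimulated than in SUI. The 10 nerve and Schwann cell markers summed to 88.4 to 155 CPM in stimulated, 47.5 to 128 in SUI and 103 to 201 in blank. The 10 smooth muscle and pericyte markers summed to 3669 to 4376 CPM in stimulated, 3257 to 4836 in SUI and 3541 to 3907 in blank. Most of each sum came from 1 gene, Des, which had 2890 to 4570 CPM per library. By sign, 8 of the 10 were lower in SUI than in blank (6 with library totals). In stimulated over SUI 9 of the 10 were higher (5 with library totals). The 7 endothelial markers summed to 266 to 392 CPM in stimulated, 200 to 291 in SUI and 171 to 325 in blank. No marker on these lists was at 0 in all libraries of a group, and the part of these cells in the channel results was not tested.

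The skeletal muscle markers bear more closely on Clcn1, Scn4a and Kcna7, which are channels of the fibre. Their 10 genes summed to 155523 to 198662 CPM in stimulated, 112014 to 189808 in SUI and 152826 to 220101 in blank libraries. The lowest SUI sum was that of SUI replicate 1 and the highest blank sum that of blank replicate 1, the libraries that stood apart. The median sum was 162830 CPM in SUI and 158907 CPM in blank libraries. In SUI over blank 8 of the 10 were below 0, with a median log2 fold change of -0.27, and in stimulated over SUI 10 of the 10 were above 0, with a median of 0.17. With library totals these counts were 6 of 10 and 6 of 10, with medians of -0.10 and 0.06. None of the 10 had an unadjusted p under 0.05 in either comparison. Clcn1, Kcna7 and Scn4a had the same signs as these medians, while Kcnj2, Kcnj12 and Kcnc4 had the opposite signs in both comparisons. In stimulated over SUI, Scn4a (0.14) and Kcnc4 (-0.04) were near 0. The part of muscle RNA content in the values of these channels was not tested. A list of 7 genes known to respond to loss of nerve input (Chrna1, Chrng, Chrnd, Myog, Musk, Ncam1 and Hdac4) summed to 101 to 130 CPM in stimulated, 134 to 165 in SUI and 91.8 to 101 in blank libraries. In SUI over blank 7 of the 7 were above 0 and 2 of them, Hdac4 and Musk, had an unadjusted p under 0.05, which is 28.6% of the list, beside 2.84% of all genes on the higher side. In stimulated over SUI 6 of the 7 were below 0, and 2 of them, again Hdac4 and Musk, had an unadjusted p under 0.05, beside 2.77% of all genes on the lower side. In stimulated over blank 7 of the 7 were above 0, with a median log2 fold change of 0.54, and 0 had an unadjusted p under 0.05. The list was chosen with earlier results of these data known, so its shares are a description and not a test. Its sum in SUI libraries lay above that of both other groups, and its part in the values of Clcn1 and Kcnn3 was not tested. The largest share of each sum came from Chrng, which had 50.5 to 78.0 CPM per library and overlapping groups. Myog had 50.1 CPM in SUI replicate 1, against 9.23 and 10.4 CPM in SUI replicates 2 and 3.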

How the data were processed

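RNA was sequenced from the pubococcygeus of 9 rat libraries, 3 per group, grouped and numbered by the sample titles, which describe the full SUI model where the library names say sham. Per the submitters' processing notes, Bowtie2, RSEM 1.3.1 and DESeq2 1.4.5 were used with the build mRatBN7.2; no source says whether reads were counted by strand. Expected counts were deposited as whole numbers, and 358 counts of 1 stand beside an FPKM under 0.001. The deposited FPKM values are the authors' own and served for levels, ratios and alternatives. Coordinates are those of the deposited tables.

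Counts were filtered with filterByExpr, scaled by TMM and fitted over all genes and all 9 libraries with edgeR 4.0.16 (quasi-likelihood, robust, R 4.3.3). P-values were adjusted by Benjamini-Hochberg over all 16256 genes, and a gene was called at 0.05. SE is the size of the log2 fold change over the square root of F. No set was tested and no adjustment was made over the channel genes alone. Alternatives were DESeq2 1.42.0, DESeq2 size factors, library totals, no filter, a mean CPM of at least 1, the 6 libraries compared, a replicate block, limma 3.58.1 on log2(FPKM + 1) or log2(FPKM + 0.1), and each library left out.

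The members and lists were chosen with earlier results of these data known. Named genes are 15 fixed muscle members, the 10 with the highest mean FPKM, and per comparison up to 5 per direction with the smallest p under 0.05 and a mean CPM of at least 0.5, 21 in all, plus those said to be named after their values were seen. Some of these members are not reported here. Up to 4 partners are given with values per comparison.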

Additional observations from a re-analysis of the deposited data

How the results depend on the processing

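Channel genes were called by DESeq2 alone among the alternatives run, 1, 3 and 0 in SUI over blank, stimulated over SUI and stimulated over blank, among 176, 208 and 21 genes in all. Over all genes, edgeR called 0, 2 and 1. For stimulated over SUI this count was 1 with library totals only and 0 with the 6 libraries compared, with limma at pseudocounts of 1 and 0.1 and after dropping both libraries that stood apart (blank 1, SUI 1). For stimulated over blank it was 0 with the 6 libraries compared, with limma at a pseudocount of 1 and without those 2 libraries. Leaving out each library gave 0 to 1, 0 to 3 and 0 to 1 genes.

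The channel genes at an unadjusted p under 0.05 numbered 9, 7 and 4 (11.4%, 8.86% and 5.06% of those tested, beside 8.18%, 8.00% and 3.77% of all genes). At a mean CPM of at least 1 they numbered 4 in SUI over blank (10%, beside 8.88%) and 2 in stimulated over blank (5%, beside 4.07%). With DESeq2 there were 15 in SUI over blank (19%, beside 11%), and with limma at a pseudocount of 0.1 there were 2 in stimulated over blank (2.53%, beside 2.49%). After dropping blank 1 and SUI 1, an alternative chosen after seeing the data, they numbered 17, 14 and 8 (21.5%, 17.7% and 10.1%, beside 8.9%, 13.4% and 4.31% of all genes). Leaving out each library gave 7 to 13, 5 to 11 and 2 to 6. These are 8.75% to 16.5%, 6.33% to 13.8% and 2.5% to 7.59% of those tested, beside 6.23% to 11.6%, 4.59% to 13.4% and 2.34% to 7.06% of all genes. In stimulated over SUI there were 11 without SUI replicate 1 (13.8%, beside 7.13%).

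Of 493 alternative values for 26 named log2 fold changes, 483 kept their direction and 10 did not. Scn4a in stimulated over SUI was -0.01 with limma at both pseudocounts (-0.0134 and -0.0136) and -0.0287 without stimulated replicate 1. Kcnc4 in stimulated over SUI was 0.1124 without SUI replicate 2, 0.0619 without SUI replicate 3 and 0.0183 without stimulated replicate 3. In stimulated over blank, Clcn1 was -0.0309 without blank replicate 3, Kcnj12 0.0938 without blank replicate 3 and 0.1248 without stimulated replicate 2, and Kcna7 0.0067 after dropping blank 1 and SUI 1. Over all libraries left out in turn these ran from -0.0287 to 0.3118 (Scn4a), -0.2663 to 0.1124 (Kcnc4), -0.0309 to 0.2368 (Clcn1) and -0.262 to 0.1248 (Kcnj12). The causes were not tested.

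With the replicate number as a block, 1 gene was called in stimulated over SUI and 0 in stimulated over blank. The deviations of same-numbered libraries had correlations from -0.31 to 0.12 over 9 pairs. With 3 libraries per group these correlations cannot exclude a pairing. The sample titles give only a number, so the block is not taken as a pairing. Depth limits the members under 0.1 FPKM, many of which had counts near the floor.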
